A study of Mus musculus with 8 samples.

Results

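Schwann cells ensheath the axons that run through skeletal muscle, and the myelin they build is the layered membrane that allows rapid conduction along motor and sensory fibers. The 8 genes described here were chosen by name, by a rule that uses no measured value, although earlier results of these data were known. All belong to this cell type or to its myelin. They were *Pmp22* and *Mbp* (compact myelin), *Prx*, *Mag* and *Cnp* (non-compact myelin and contact with the axon), *Sox10* (the transcription factor that specifies the lineage), and *S100b* and *Cdh19* (markers of the Schwann lineage). Each gene had 1 probe set, a group of short probes that together measure one gene, among 22206 probe sets in the table.

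The arrays measured total RNA of gastrocnemius (GAS) muscle from male C57/Bl6j mice aged 22 weeks. At about 10 weeks of age, one GAS was injected with AAV sh-RNA MYTHO, an adeno-associated virus of serotype 1 carrying a short hairpin RNA against *Mytho* (listed as *D230025D16Rik*) under a U6 promoter. The contralateral GAS received AAV sh-RNA scrmb, the same kind of vector with a scramble hairpin, and the muscles were taken 3 months later (4 arrays per group, 8 in all). Both groups therefore carried virus and a hairpin. The serotype favors muscle fibers, but the U6 promoter is not restricted to them, and uptake of the virus by cells of the nerve was not analysed here. MYTHO itself is an autophagy regulator, and whether its knockdown (MYTHO-KD) in muscle was accompanied by a change of nerve-associated transcripts is the question addressed here. Values are given as the authors' average ± SD over the 4 arrays of a group, on the log2 scale. The target averaged 10.02 ± 0.37 in scramble and 7.71 ± 0.66 in MYTHO-KD, which left 20.2% of the scramble signal (95% interval 12.7 to 31.9%, adjusted p = 0.0138, limma).

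In a small piece of muscle, Schwann cell RNA comes from intramuscular nerve branches and from the terminal Schwann cells that cap the neuromuscular junction. When axons are lost, Schwann cells switch off *Egr2* and the myelin genes it drives together with *Sox10*, and switch on *Jun*, *Ngfr*, *Shh* and other genes of the repair state. Array signals of bulk muscle cannot tell fewer Schwann cells from less RNA per cell. Signals of different probe sets have no common scale, so levels are compared mainly between groups for the same gene. The background limit and the summed signals given below cross probe sets and are rough guides only.

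None of the 8 genes passed Benjamini-Hochberg adjustment over all probe sets in limma's moderated test, and none reached the study's criterion of a 2-fold change with an unadjusted p under 0.05. These criteria were met by 0.275% and 1.12% of all probe sets. The p-values were recomputed here from averages and SDs, so the probe sets meeting the study's criterion are not the same set that the paper counted. Averages were lower in MYTHO-KD for 6 of the 8 genes, namely *Mbp*, *Mag*, *Prx*, *Sox10*, *Cnp* and *Cdh19*, and higher for *Pmp22* and *S100b*. Of all probe sets, 51.4% were lower. The differences ran from -0.42 to 0.28 (log2) with a median of -0.23, against -0.01 over all probe sets. At an unadjusted p under 0.05 without regard to fold, *Mag* was the 1 gene of the 8, and it was lower. By that rule 5.52% of all probe sets were lower and 6.48% higher. The 95% interval of the difference lay within 2-fold in both directions for 7 of the 8 genes, as it did for 89.2% of all probe sets, and *Mbp* was the exception.

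**Figure D1:**
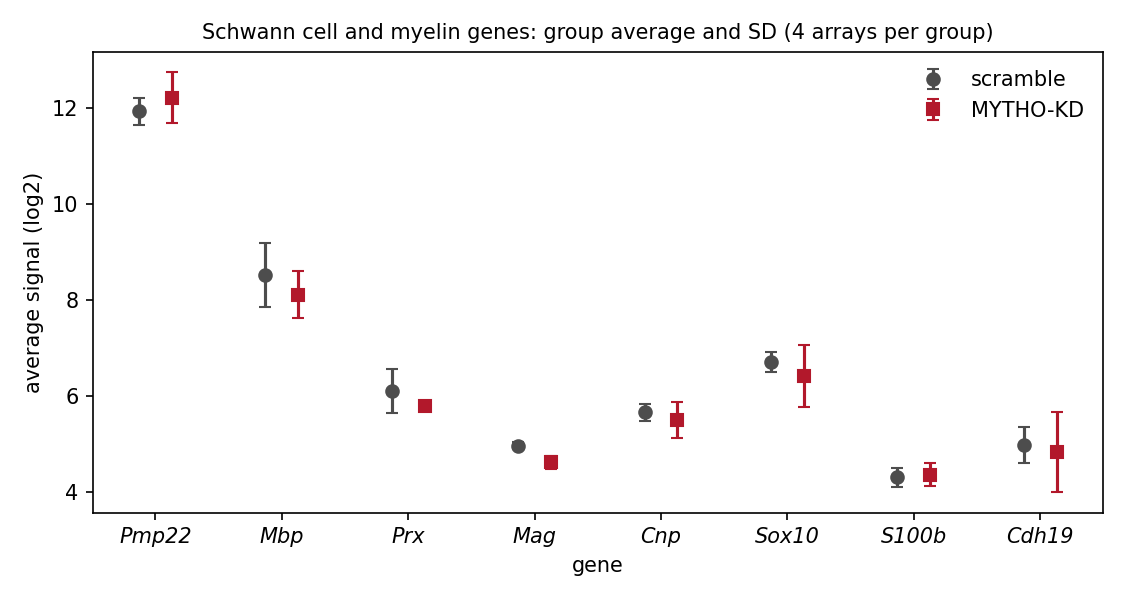
Group averages of the 8 genes (log2 signal, vertical axis) in scramble (gray circles) and MYTHO-KD (red squares), with bars of 1 SD over 4 arrays per group. The bars overlap for every gene except *Mag*, with averages of 4.97 in scramble and 4.62 in MYTHO-KD. The share of all probe sets whose bars lie apart was not counted, so this does not set *Mag* apart from the table.

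*Pmp22* encodes a tetraspan protein of compact myelin whose dosage is critical in inherited neuropathies. The gene is also active in fibroblasts and other growth-arrested cells, so that its signal in muscle is not specific to nerve. The probe set lies on chromosome 11 from 63128982 to 63159547 (mm10, as for all coordinates given). Its average was 11.94 ± 0.28 (log2) in scramble and 12.22 ± 0.53 in MYTHO-KD. The signal in MYTHO-KD was thus 121% of that in scramble (95% interval 82.5 to 179%, adjusted p = 0.735, limma), and the ranges of 1 SD around the averages overlapped.

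*Mbp* encodes myelin basic protein, which holds the cytoplasmic faces of compact myelin together. The same locus also produces longer transcripts, known as golli, in immune and other cells, and the probe set (chromosome 18, from 82475123 to 82585637) lists 8 RefSeq mRNAs. *Mbp* averaged 8.53 ± 0.66 (log2) in scramble and 8.11 ± 0.49 in MYTHO-KD. Of the 8 genes it had the difference farthest below 0, -0.42, or 74.7% of the scramble signal. Its interval was wide, from 45.7 to 122% (adjusted p = 0.672, limma), so that neither an equal level nor a halving lay outside it.

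Among the genes of non-compact myelin, *Mag* encodes a sialic acid-binding adhesion protein on the inner face of the myelin sheath, next to the axon. It lies on chromosome 7 from 30899183 to 30914832. The averages were 4.97 ± 0.08 (log2) in scramble and 4.62 ± 0.14 in MYTHO-KD, the smallest pooled spread of the 8 genes. The ranges of 1 SD did not overlap, but how many of all probe sets share this was not counted. *Mag* stood at 78.5% of scramble (95% interval 62.3 to 98.8%), with an unadjusted p of 0.0406 and an adjusted p of 0.390 in limma's test. Over the 6 settings that kept *Mag*, the unadjusted p lay between 0.00487, without moderation, and 0.0540, with the variance modelled as a trend with signal, and was under 0.05 in 5. The adjusted p lay between 0.281 and 0.429. The *Mag* signal was also close to background. Among 458 probe sets that the software flagged as expressed in neither group, 95% had a mean of both groups under 4.91, and the mean for *Mag* was below this limit too.

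*Prx* encodes periaxin, a scaffold that links the Schwann cell membrane to the dystroglycan complex and keeps open the cytoplasmic channels along the myelin sheath. Its probe set is on chromosome 7 from 27499324 to 27520214. The averages were 6.11 ± 0.46 (log2) in scramble and 5.79 ± 0.10 in MYTHO-KD. The spread between arrays was small in MYTHO-KD and larger in scramble, and the ranges of 1 SD overlapped. *Prx* was at 80.1% of scramble (95% interval 57.5 to 112%, adjusted p = 0.619, limma).

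*Cnp* encodes the cyclic nucleotide phosphodiesterase of uncompacted myelin, an enzyme abundant in myelinating cells and present at low levels in many others. It lies on chromosome 11 from 100574904 to 100591729. *Cnp* averaged 5.66 ± 0.18 (log2) in scramble and 5.50 ± 0.37 in MYTHO-KD. The signal was 89.5% of scramble (95% interval 65.8 to 122%, adjusted p = 0.827, limma), and the groups overlapped.

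*Sox10* is required at every stage of the Schwann lineage and binds the regulatory regions of most myelin genes. Its probe set is on chromosome 15 from 79154909 to 79164506. It averaged 6.72 ± 0.21 (log2) in scramble and 6.42 ± 0.65 in MYTHO-KD, where the SD was 3.10 times larger. *Sox10* was at 81.2% of scramble (95% interval 53.1 to 124%, adjusted p = 0.743, limma).

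*S100b* encodes a calcium-binding protein used to stain Schwann cells, which adipocytes also make. It lies on chromosome 10 from 76253836 to 76261319 and averaged 4.31 ± 0.20 (log2) in scramble and 4.36 ± 0.24 in MYTHO-KD. The signal was 104% of scramble (95% interval 78.9 to 136%, adjusted p = 0.955, limma). The mean of 4.34 lay below the limit of 4.91 given for *Mag*, and a fall so close to the floor of the array could go unseen.

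*Cdh19*, on chromosome 1 from 110889195 to 110977372, encodes a cadherin of neural crest-derived glia. Its average was 4.98 ± 0.38 (log2) in scramble and 4.84 ± 0.83 in MYTHO-KD. The difference of -0.14 had the widest interval of the 8 genes, from 53.1 to 155% of scramble (adjusted p = 0.930, limma). A mean of 4.91 placed *Cdh19* at the upper edge of the background range as well. All 8 genes were nevertheless flagged as expressed in both groups by the software.

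**Figure D2:**
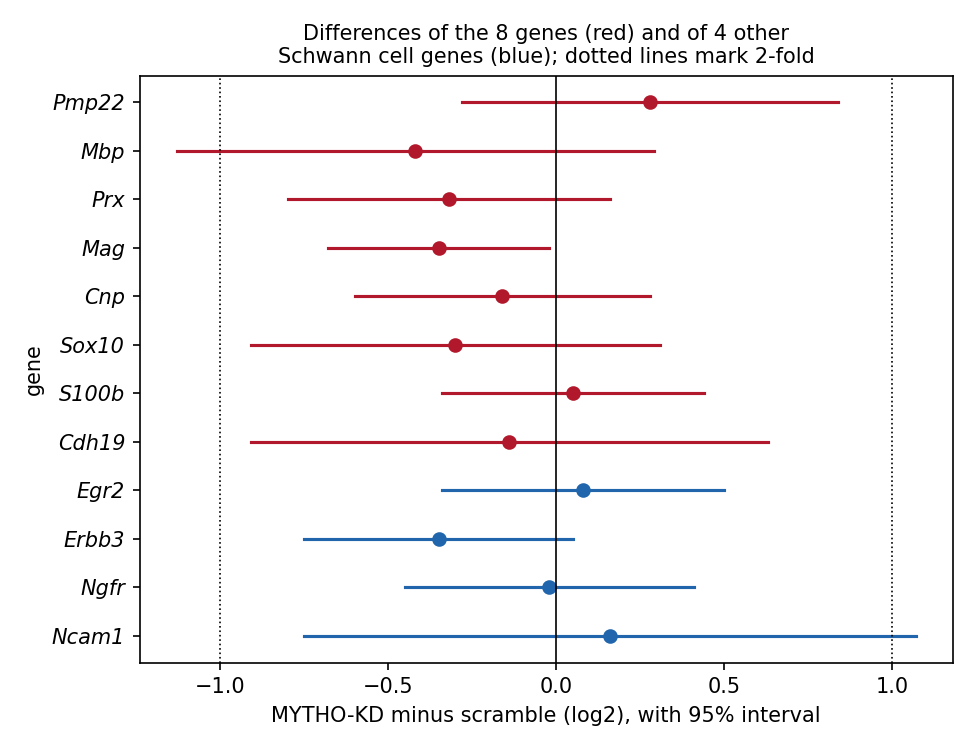
Difference between MYTHO-KD and scramble (log2, horizontal axis) with its 95% interval from limma's moderated variance, for the 8 genes (red) and for 4 other genes with defining roles in Schwann cells (blue). Every interval includes 0 except that of *Mag*, and those of *Mbp* and *Ncam1* cross a line of 2-fold (dotted).

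The spread between arrays differed among the genes. The SD was larger in MYTHO-KD than in scramble for 6 of the 8, against 48.1% of all probe sets, and the exceptions were *Mbp* and *Prx*. The median SD over the 8 genes was 0.43 in MYTHO-KD and 0.24 in scramble, where the median over all probe sets was 0.27 in either group. The half-width of the 95% interval was accordingly 0.33 (log2) for *Mag* but 0.77 for *Cdh19*, 0.71 for *Mbp* and 0.61 for *Sox10*. No test of the SDs was made, and the table gives group values only, so which arrays carried the spread is not known.

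**Figure D3:**
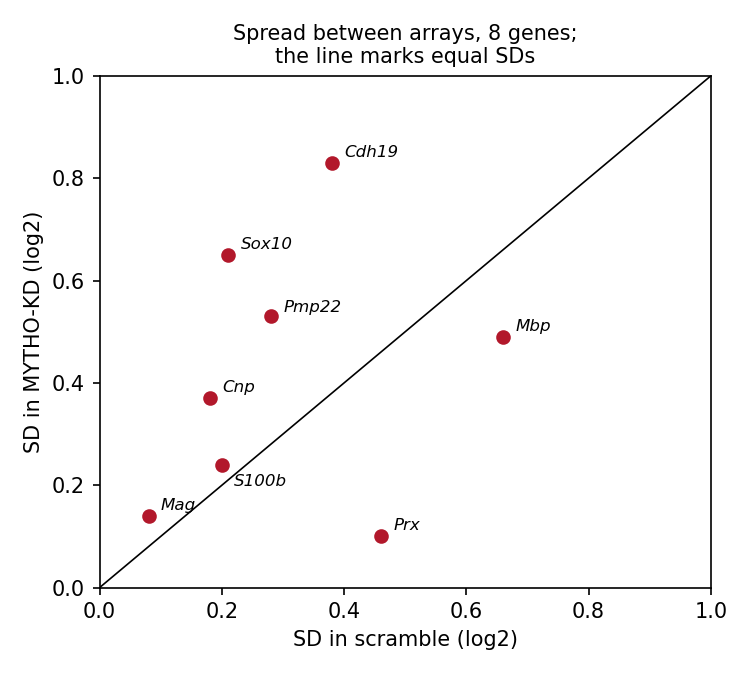
SD over 4 arrays (log2) in scramble (horizontal axis) and in MYTHO-KD (vertical axis) for the 8 genes, with a line of equal SDs. *Sox10* (0.21 and 0.65) and *Cdh19* (0.38 and 0.83) lie farthest above the line and *Prx* (0.46 and 0.10) farthest below.

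The other genes of the Schwann cell were examined in 7 lists, which hold 119 genes, the 8 included, when each is counted once. None of the 119 passed the adjustment over all probe sets in limma's test, whereas 2 did, *Lpar1* and *Atf3*, when the variance was modelled as a trend with signal (adjusted p = 0.0473 and 0.0384, limma). Neither is a myelin gene. At an unadjusted p under 0.05, 8 were higher and 8 lower in MYTHO-KD, together 13.4% of the genes, against 12% of all probe sets. The median difference was 0.03 (log2).

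In the compact myelin list, 5 of 10 genes were lower, 5 were higher and the median was 0.01. The farthest from 0 was *Mal*, a raft protein of myelin and epithelia, at 8.38 ± 0.56 (log2) in scramble and 7.65 ± 0.26 in MYTHO-KD. Its signal was 60.3% of scramble (unadjusted p = 0.0163, adjusted p = 0.291, limma). *Cd9*, a tetraspanin found in many cell types, was at 130% (adjusted p = 0.474, limma).

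In the list of non-compact myelin and axon contact, 9 of 16 genes were lower, 6 were higher and the median was -0.04. Apart from *Mag*, the gene at an unadjusted p under 0.05 was *Gjc3*, a connexin of myelinating glia. *Gjc3* averaged 8.82 ± 0.48 (log2) in scramble and 8.14 ± 0.50 in MYTHO-KD, and stood at 62.4% of scramble (adjusted p = 0.370, limma). *Drp2*, the dystrophin-related partner of periaxin, differed in the other direction, with averages of 5.87 ± 0.32 in scramble and 6.34 ± 0.48 in MYTHO-KD (139%, adjusted p = 0.485, limma). *Cdh1*, the adhesion protein of the sheath's autotypic junctions, was at 127% (interval 95.9 to 169%).

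Of 15 transcription factors of the lineage 12 were higher and 3 lower, with a median of 0.10. *Egr2*, the master regulator of myelination, averaged 7.05 ± 0.16 (log2) in scramble and 7.13 ± 0.34 in MYTHO-KD, or 106% of scramble (95% interval 78.8 to 142%). *Nab2*, its co-regulator, was at 127% (interval 90.1 to 180%). *Zeb2*, a repressor that Schwann cells need for differentiation and that macrophages and other cells also express, shares its probe set with *Mir5129*. Its averages were 9.09 ± 0.28 in scramble and 8.44 ± 0.39 in MYTHO-KD, which put it at 63.7% of scramble (unadjusted p = 0.0127, adjusted p = 0.265, limma).

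The signalling list, which includes laminins and integrins made or used by many other cells, had 13 of 19 genes higher, 6 lower and a median of 0.28. At an unadjusted p under 0.05, 5 were higher and 1 was lower, where 6.48% of all probe sets were higher and 5.52% lower. *Lpar1*, a lysophosphatidic acid receptor also found on fibroblasts, averaged 9.51 ± 0.28 (log2) in scramble and 10.61 ± 0.50 in MYTHO-KD. It met the study's criterion at 214% of scramble but not the adjustment (adjusted p = 0.0991, limma), other than under the variance trend given above. *Lama2* and *Lamc1*, chains of the laminin in the basement membranes of muscle fibers and Schwann cells, were at 183% and 169% of scramble (adjusted p = 0.153 and 0.230, limma). *Erbb3*, the neuregulin receptor of Schwann cells, averaged 6.31 ± 0.15 in scramble and 5.96 ± 0.30 in MYTHO-KD (78.5%, 95% interval 59.3 to 104%). Its partners were named after their values were seen. The co-receptor *Erbb2*, with a scramble average below the background limit of 4.91, averaged 4.48 ± 0.26 in scramble and 5.13 ± 0.29 in MYTHO-KD (157%, unadjusted p = 0.00660, adjusted p = 0.207, limma). The ligand gene *Nrg1* averaged 6.99 ± 0.29 in scramble and 6.43 ± 0.13 in MYTHO-KD (67.8%, unadjusted p = 0.00936, adjusted p = 0.234, limma).

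Among 16 genes of non-myelinating and immature Schwann cells, 7 were higher and 9 lower, with a median of -0.07, and none had an unadjusted p under 0.05 in limma's test. *Ngfr*, the low-affinity neurotrophin receptor, averaged 5.77 ± 0.24 in scramble and 5.75 ± 0.30 in MYTHO-KD (98.6%, 95% interval 73.3 to 133%). *Ncam1*, an adhesion molecule that denervated and regenerating muscle fibers also make, averaged 9.44 ± 0.82 in scramble and 9.60 ± 0.73 in MYTHO-KD (112%, interval 59.6 to 209%). *Gfap*, a filament of non-myelinating and reactive glia, averaged 6.97 ± 0.51 in scramble and 6.42 ± 0.31 in MYTHO-KD (68.3%, interval 46.4 to 100%). *Col28a1*, a collagen of peripheral nerve, was at 76.3% (interval 56.7 to 103%), and *Sox6* at 81.8% (interval 60.8 to 110%).

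The 19 repair genes had a median of -0.01, with 9 higher and 10 lower. *Atf3*, a stress-induced factor of injured nerve and of many other tissues, averaged 7.87 ± 0.69 (log2) in scramble and 9.33 ± 0.39 in MYTHO-KD. It met the study's criterion at 275% of scramble, with an adjusted p of 0.0888 in limma's test, and passed the adjustment under the variance trend. *Tnc*, a matrix protein of injured tissue, averaged 7.10 ± 0.23 in scramble and 7.75 ± 0.99 in MYTHO-KD (157%, 95% interval 87.2 to 282%). *Shh*, which uninjured Schwann cells keep silent, was at 66.4% (unadjusted p = 0.0210, adjusted p = 0.321, limma). *Jun*, the central factor of the repair state, was named after its value was seen and was at 147% (unadjusted p = 0.0212, adjusted p = 0.321, limma). Counting unadjusted p-values below 0.05, this list held 2 higher genes and 1 lower gene among its 19. The same count over the whole table gave 6.48% of probe sets higher and 5.52% lower. None of the 19 passed the adjustment without the variance trend, so these few genes set no direction for the list. *Ngfr* and *Gfap*, shared with the previous list, stood at 98.6% and 68.3% of scramble, and both 95% intervals included an equal level.

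In the list of myelin lipid synthesis, which also serves membranes of all other cells, 11 of 26 genes were higher and 14 lower, with a median of -0.08. *Ugt8a*, the enzyme that makes galactosylceramide, the characteristic lipid of myelin, averaged 5.94 ± 0.28 (log2) in scramble and 5.47 ± 0.18 in MYTHO-KD. It was at 72.2% of scramble (unadjusted p = 0.0256, adjusted p = 0.337, limma). *Hmgcs1*, an early enzyme of cholesterol synthesis, was at 65.5% (adjusted p = 0.262, limma), and *Ugcg*, which makes glucosylceramide, at 148% (95% interval 94.3 to 234%).

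**Figure D4:**
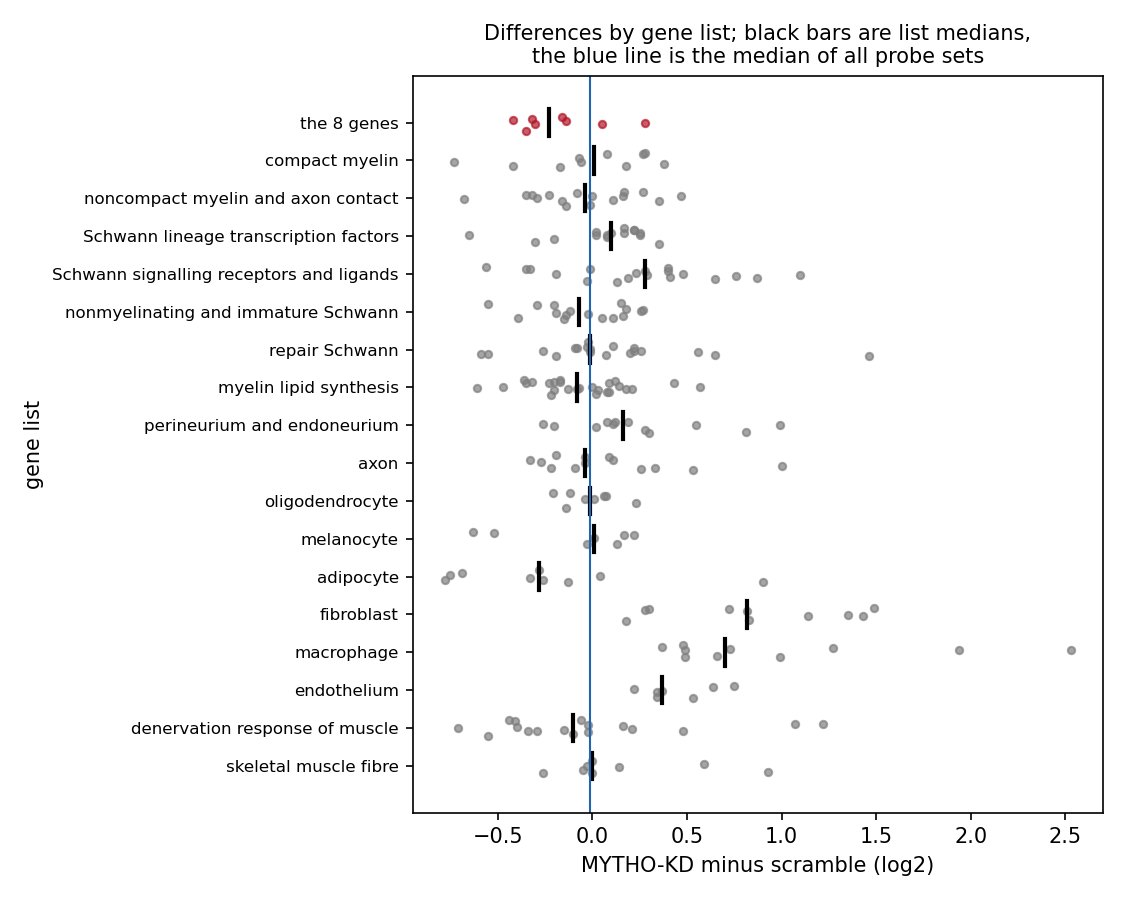
Differences between MYTHO-KD and scramble (log2, horizontal axis) for each gene of the 8 (red) and of 17 other lists (gray), with the list median as a black bar and the median of all probe sets as a blue line. The 7 Schwann cell lists, from compact myelin to myelin lipid synthesis, have medians between -0.08 and 0.28, whereas the fibroblast, macrophage and endothelium lists have medians of 0.82, 0.70 and 0.37.

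Markers of other cells in the muscle also differed between the groups. All 10 macrophage markers and all 10 fibroblast markers were higher in MYTHO-KD, as were all 7 endothelial ones, where 46.9% of all probe sets were higher. At an unadjusted p under 0.05 these were 7 of 10 macrophage, 5 of 10 fibroblast and 2 of 7 endothelial markers, and at an adjusted p under 0.05 they were 2, 1 and 0 (limma). Of all probe sets, 6.48% were higher by the first rule, and 0.275% passed the second in either direction. The summed linear signal of the macrophage markers was 4990 in MYTHO-KD and 2110 in scramble, that of the fibroblast markers 135000 and 107000, and that of the endothelial markers 22800 and 16200. Such sums follow the brightest probe sets, and *Dcn*, at 121% of scramble (adjusted p = 0.644, limma), made up 88.2% of the fibroblast sum in MYTHO-KD and 91.8% in scramble. *Lyz2*, a lysozyme of macrophages, rose to 384% of scramble (adjusted p = 0.0277, limma), as did *Cd68*, a lysosomal protein of macrophages, to 578% (adjusted p = 0.0182, limma) and *Lum*, a matrix proteoglycan of fibroblasts, to 281% (adjusted p = 0.0443, limma). Their part in the values of *Pmp22*, *Mbp*, *Zeb2*, *Lpar1*, the laminins and *Atf3*, which these cells can also express, was not tested. Fibers of the muscle itself gave *Acta1* and *Myh4* signals at the top of the scale in both groups, 19.93 (log2) with an SD of 0, so a rise of these would not be seen.

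Some of the 8 genes are shared with cell types other than Schwann cells, and markers of these were examined too. *Mbp*, *Mag*, *Cnp* and *Sox10* are shared with oligodendrocytes, which muscle lacks. Of 8 oligodendrocyte markers none had an unadjusted p under 0.05 in limma's test (median -0.01). A lack of difference cannot show which cells a signal comes from, and the source was not tested. *Mog*, the defining marker, averaged 4.29 ± 0.27 in scramble and 4.17 ± 0.24 in MYTHO-KD, within the background range. It had the lowest signal of these markers, and the others averaged above the limit of 4.91 in both groups. *Olig2*, the brightest, averaged 6.48 ± 0.24 in scramble and 6.27 ± 0.28 in MYTHO-KD. Of the 8 genes described here, only *Pmp22*, *Mbp* and *Sox10* averaged above *Olig2* in both groups, although probe sets differ in scale. *Sox10* is also active in melanocytes, for which 7 markers had a median of 0.01. Of these, *Tyr* averaged 4.14 ± 0.31 in scramble and 4.31 ± 0.31 in MYTHO-KD, within the background range too. *Tyr* had the lowest signal of the 7, and most of the others averaged above the limit of 4.91 in both groups. Among them was *Dct*, at 6.05 ± 0.39 in scramble and 6.06 ± 0.20 in MYTHO-KD. At an unadjusted p under 0.05, where 6.48% of all probe sets were higher and 5.52% lower, none of the 7 was higher and 1 was lower. This was *Pmel*, a protein of melanosome fibrils, at 5.71 ± 0.07 in scramble and 5.08 ± 0.21 in MYTHO-KD (64.6%, unadjusted p = 0.00216, adjusted p = 0.146, limma). *Mitf*, a factor of melanocytes that many other cells express, was at 69.7% (95% interval 47.7 to 102%). The part of such cells in the *Sox10* value was not tested. For *S100b*, the adipocyte markers had a median of -0.28 with very large SDs, for *Adipoq* 2.22 in scramble and 2.13 in MYTHO-KD, and thus varied widely between the arrays of each group. Of the 9 markers, 7 were lower and 2 higher, the higher ones being *Fabp4* and *Lpl*. *Adipoq* was at 62% of scramble (95% interval 11.7 to 329%), and *Fabp4*, the brightest of them, at 103% (95% interval 67.1 to 157%). At an unadjusted p under 0.05, 1 of the 9 was higher, *Lpl*, a lipase also made by muscle fibers, at 187% (unadjusted p = 0.0239, adjusted p = 0.328, limma), and none was lower. None of the 9 passed the adjustment, and their part in the *S100b* value was not tested.

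Genes of the perineurium and endoneurium, the connective sheaths of nerve, were higher in 10 of 12 cases, with a median of 0.16. Of these, 3 were higher at an unadjusted p under 0.05 and none of the 12 was lower. By that rule, used below for the axon and denervation lists too, 6.48% of all probe sets were higher and 5.52% lower. *Sox9*, a transcription factor also of fibroblasts and cartilage, was at 199% of scramble (unadjusted p = 0.000846, adjusted p = 0.0991, limma), and *Abca9*, a lipid transporter, at 175% (adjusted p = 0.199, limma). *Tjp1*, a tight junction protein also found in endothelium, was at 146% of scramble (adjusted p = 0.325, limma), and *Slc2a1*, the glucose transporter of the perineurium, at 123%. Transcripts of axons, most of which lie in cell bodies outside the muscle, had a median of -0.04 over 13 genes, with 6 higher and 7 lower. At an unadjusted p under 0.05, 2 were higher and none was lower. *Uchl1*, which is not restricted to neurons, averaged 5.51 ± 0.21 in scramble and 6.51 ± 0.72 in MYTHO-KD (200%, adjusted p = 0.204, limma). On these rounded averages it stood exactly at the 2-fold limit of the study's criterion, and unrounded ones could fall just short. *Nefl*, a neurofilament gene, was at 144% (unadjusted p = 0.0414, adjusted p = 0.393, limma), with both averages below the background limit of 4.91. In the list of the fiber response to denervation, 12 of 17 genes were lower and 5 higher, with a median of -0.10. Those with an unadjusted p under 0.05 were 2 higher and 3 lower genes. The 2 higher genes met the study's criterion. *Runx1*, a transcription factor induced in denervated fibers, averaged 6.74 ± 0.48 in scramble and 7.96 ± 0.62 in MYTHO-KD (adjusted p = 0.146, limma), and *Chrna1*, a subunit of the acetylcholine receptor, 6.73 ± 0.31 in scramble and 7.80 ± 0.57 in MYTHO-KD (adjusted p = 0.141, limma). The lower genes were *Musk*, the receptor kinase of the neuromuscular junction, at 61.1% of scramble (adjusted p = 0.199, limma), *Sh3bgr* at 68.3% (adjusted p = 0.210, limma) and *Trim63*, a ubiquitin ligase of muscle atrophy, at 73.7% (adjusted p = 0.381, limma).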

How the data were processed

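Total RNA of GAS muscle was hybridized to Clariom S Mouse arrays, 4 per group. The authors normalized the signals with default settings of the Transcriptome Analysis Console (SST-RMA), and the deposited table gives, per probe set, the log2 average and SD of each group and a flag for expression. Its fold changes and p-values were not used. The submitters' processing notes name Affymetrix Expression Console, RMA and mm10. Numbers carry a decimal comma. The labels set the groups, and 0 columns of single arrays were left unused.

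Planned fits on single arrays were replaced by limma 3.58.1 (R 4.3.3) on the averages and SDs. The mean of both variances, on 6 residual degrees of freedom, was passed to squeezeVar, which estimated a prior SD of 0.284 with 5.85 degrees of freedom. Two-sided p-values were adjusted by Benjamini-Hochberg over 22206 probe sets. The kind of average is not stated, and if it is not a plain mean, p-values are somewhat too low. The test treats the 8 arrays as independent, although scramble virus went into the opposite leg of treated mice. Nothing states that the muscles of a group came from separate mice, so p-values measure only the spread between these samples, which may be technical. The test was checked on simulated data. Those arrays were independent and were averaged by plain means, so the check does not bear on paired legs or on another kind of average.

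The 8 genes and the lists were chosen with earlier results of these data known. For a gene with several probe sets the brightest was used. All 218 listed symbols matched, 1 by an older name (*Nectin1*, as *Pvrl1*). Besides the 8 genes, named genes are the 3 with the largest difference in each Schwann cell list, any meeting the study's criterion, genes with defining roles, and bright markers of other cells. Some genes that this rule names are not reported here. *Erbb2*, *Nrg1*, *Jun*, *Mog*, *Tyr*, *Adipoq*, *Slc2a1*, *Pmel*, *Sox9*, *Nefl*, *Musk* and *Trim63* fall outside this rule and were chosen after their values were seen. Alternatives were no moderation, a variance trend with robust fitting, unequal variances, removal of dim probe sets (below the 30th percentile of mean signal, 5.72), probe sets expressed in both groups, 1 probe set per symbol, other thresholds, and other list memberships.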

Additional observations from a re-analysis of the deposited data

How the results depend on the processing

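No paired analysis was possible because the table holds 1 average and 1 SD per group, and for the same reason fits without single arrays were not run. None of the 8 genes passed the adjustment in any setting run, and the lowest adjusted p was 0.281, for *Mag*. Of the 8 genes, 1 was lower at an unadjusted p under 0.05. That count was 0 with a variance trend and robust fitting, and 0 when dim probe sets were left out, because the filter removes *Mag*, *S100b*, *Cnp* and *Cdh19*. It was also 0 with an adjusted p, at 2-fold, at 1.5-fold with an unadjusted p, and at 1.5-fold whatever the p. The median of the 8 genes stayed at -0.23 with other choices of probe set, since each has 1, and was -0.22 after subtracting the median of all probe sets. Over the whole table, 40 probe sets were higher and 21 lower at an adjusted p under 0.05. Without moderation 0 were higher and 2 lower, as with unequal variances, and with a variance trend 115 and 74, among them *Lpar1* (adjusted p = 0.0473, limma) and *Atf3* (0.0384), the 2 of the 119 Schwann cell genes that passed in any setting run. Of 2 genes lower in the list of non-compact myelin, 1 remained in the count without the 8 genes or without dim genes, and of 2 in the lipid list, 1 without dim genes. The other 86 values and counts stayed within the spread or within 1.5 times. Arrays have no sequencing depth. Their number limits the precision, and signals near background can hide a fall.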
